A study of Chlorocebus aethiops with 12 samples.

Results

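The NF-kappaB subunits and their inhibitors are followed here as 10 genes, chosen by their RefSeq accessions among the 32379 accessions on a human one-colour Agilent array. They are the inhibitors NFKBIA (NM_020529), NFKBIB (NM_002503), NFKBIE (NM_004556) and NFKBIZ (NM_031419), the ubiquitin regulators TNFAIP3 (NM_006290), TNIP1 (NM_006058) and BIRC3 (NM_001165), and the subunits NFKB1 (NM_003998), RELA (NM_021975) and RELB (NM_006509). The rule names accessions and uses no threshold on measured values, but the genes were proposed with earlier results of these data known. The RNA came from COS-1, a fibroblast-like kidney cell line of the African green monkey. All cells had been transfected with S211A, a form of the glucocorticoid receptor (GR) in which a phosphorylated serine is replaced by alanine. The 4 groups of 3 biological replicates were S211A+MDFIC with dexamethasone (Dex), S211A+MDFIC with vehicle, S211A with Dex and S211A with vehicle. Dex, a synthetic glucocorticoid that activates GR, was given at 100 nM, and Dex and vehicle were both applied for 6 h from the second day after transfection. The series asks whether the effect of MDFIC on transcription by GR depends on this phosphorylation site. No arrays with the unmutated receptor or with untransfected cells were analysed here, and the share of cells that took up each plasmid is not given in the sources used here.

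In resting cells, inhibitor proteins of the IkappaB family hold NF-kappaB dimers in the cytoplasm. Inflammatory signals pass through chains of ubiquitin to a kinase that marks the inhibitors for destruction, and the freed dimers then switch on genes, among them those of several of their own inhibitors. Glucocorticoids are known to oppose NF-kappaB, and induction of NFKBIA by the activated GR is one of the described routes. MDFIC is a protein that binds GR in cells without hormone.

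The members were measured by 12 probes, 2 each for TNFAIP3 and TNIP1 and 1 for each other gene. All 12 were well above background on all 12 arrays, so every member passed the filter on dim probes. Levels are log2 signals relative to the 75th percentile of the same array, so that 0 is the 75th percentile and 1 unit is a doubling. The probes are human and the RNA is monkey, and levels of different probes are therefore not set against each other. Changes were tested with limma over all 24586 accessions that passed the filter, and a change is said to rise or fall where its Benjamini-Hochberg adjusted p is under 0.05. RNA was taken from whole cultures, in which fewer cells expressing a gene and less RNA per cell cannot be told apart. The 12 arrays lay on 3 slides of 4. All S211A+MDFIC Dex arrays and vehicle replicate 3 of that setting shared slide 3. S211A Dex replicate 1 was on slide 1 with every S211A vehicle array, and the remaining 4 arrays were on slide 2. Between 68.8% and 72.6% of the spots were well above background on the arrays of slide 1, and between 77.0% and 81.3% on those of the other slides. Arrays of the same group correlated across accessions with r of 0.986 to 0.996, and the number of arrays limits the precision.

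**Figure D1:**
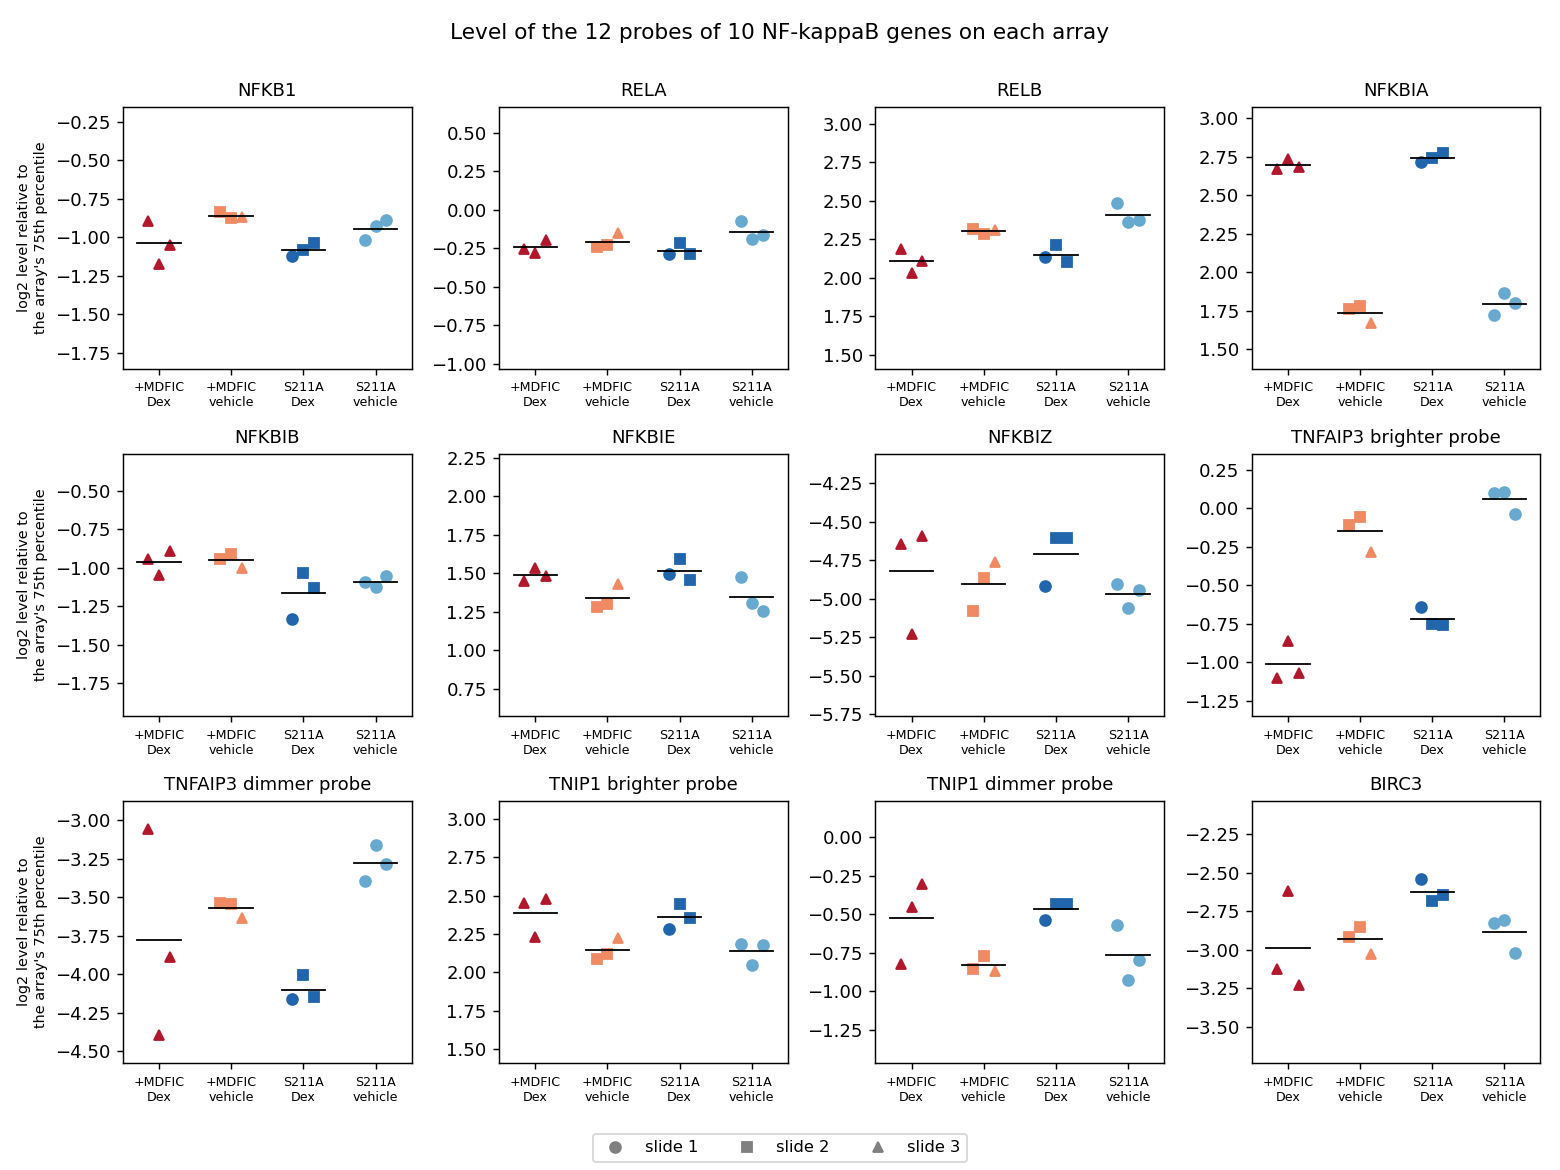
Level of each member probe on each of the 12 arrays, as log2 signal relative to the array's 75th percentile, with a line at each group mean and the marker showing the slide. NFKBIA sits between 2.67 and 2.78 on the 6 Dex arrays and between 1.67 and 1.86 on the 6 vehicle arrays.

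Dex raised NFKBIA and lowered TNFAIP3 at its brighter probe, both with and without MDFIC, and the other 5 genes of inhibitors and ubiquitin regulators did not pass the test in either setting. Of the 10 members, 1 rose and 1 fell in S211A+MDFIC cells, and 1 rose and 2 fell in S211A cells. Over all accessions, 5.9% rose and 4.03% fell in S211A+MDFIC cells, and 4.35% rose and 2.1% fell in S211A cells. This balance depended on the scaling. After median centring 638 accessions rose and 678 fell in S211A cells, in place of 1070 and 517. In S211A+MDFIC cells 900 rose and 753 fell after median centring, in place of 1450 and 991. Values without scaling gave 420 rises and 98 falls in S211A+MDFIC cells and 425 and 81 in S211A cells. The members' median log2 change was -0.02 in S211A+MDFIC cells and 0.05 in S211A cells, beside 0.04 and 0.02 over all accessions. The median size of change, sign left aside, was 0.17 for the members and 0.15 for all accessions in S211A+MDFIC cells, and 0.24 and 0.12 in S211A cells.

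NFKBIA encodes IkappaB alpha, the inhibitor that is destroyed and remade with each round of NF-kappaB activity. Its level was 2.67, 2.73 and 2.68 on the S211A+MDFIC Dex arrays, against 1.76, 1.78 and 1.67 on the S211A+MDFIC vehicle arrays. It was 2.72, 2.74 and 2.78 on the S211A Dex arrays, against 1.72, 1.86 and 1.80 on the S211A vehicle arrays. Every Dex array was above every vehicle array, and the arrays of one treatment overlapped between S211A+MDFIC and S211A cells. As deposited signals these are 6078, 5992 and 4881 against 3149, 2801 and 2938 intensity units in S211A+MDFIC cells, and 5124, 5408 and 5512 against 2547, 3192 and 2747 in S211A cells. NFKBIA thus rose 1.94-fold under Dex in S211A+MDFIC cells (log2 0.96, SE 0.05, limma adjusted p = 5.26e-06). It rose 1.93-fold in S211A cells (log2 0.95, SE 0.05, limma adjusted p = 4.98e-06). Among the 1450 accessions that rose in S211A+MDFIC cells, 194 others rose farther than NFKBIA, and in S211A cells 210 others of 1070 did.

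The other IkappaB genes did not pass the test under Dex. NFKBIE, which encodes IkappaB epsilon, stood at 1.45, 1.53 and 1.48 on the S211A+MDFIC Dex arrays, against 1.28, 1.30 and 1.43 under vehicle. It stood at 1.49, 1.59 and 1.45 on the S211A Dex arrays, against 1.48, 1.31 and 1.26 under vehicle. The groups did not overlap in S211A+MDFIC cells and overlapped in S211A cells. The log2 change was 0.15 (SE 0.07, limma adjusted p = 0.208) with MDFIC and 0.17 (SE 0.07, limma adjusted p = 0.233) without it. NFKBIB, which encodes IkappaB beta, averaged -0.96 ± 0.08 under Dex and -0.95 ± 0.05 under vehicle in S211A+MDFIC cells, and -1.16 ± 0.15 and -1.09 ± 0.04 in S211A cells (SD, n = 3 each). Its log2 change under Dex was -0.01 with MDFIC and -0.07 without it, inside the spread between replicates. In S211A cells the value was 0.01 without Dex replicate 1 and -0.24 with slide as a block, and neither passed. NFKBIZ encodes a nuclear member of the family that acts as a cofactor at some NF-kappaB target genes. Its probe was the dimmest, at 24.0 to 38.1 intensity units on the S211A+MDFIC Dex arrays, 27.5 to 34.0 under vehicle, 25.8 to 33.2 on the S211A Dex arrays and 25.6 to 26.3 under vehicle. The scanner's own error estimate for this probe was 12.1% to 18.8% of the signal, and its log2 changes of 0.08 in S211A+MDFIC cells and 0.26 in S211A cells did not pass (limma adjusted p = 0.795 and 0.444). With single arrays left out they ran from -0.03 to 0.29 with MDFIC and from 0.21 to 0.36 without it.

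TNFAIP3 encodes A20, a ubiquitin-editing enzyme that dampens NF-kappaB signalling and is itself an NF-kappaB target. Its brighter probe stood at -1.10, -0.86 and -1.07 on the S211A+MDFIC Dex arrays, against -0.11, -0.06 and -0.29 under vehicle. It stood at -0.64, -0.76 and -0.76 on the S211A Dex arrays, against 0.10, 0.11 and -0.04 under vehicle. Every Dex array was below every vehicle array. TNFAIP3 was 1.82-fold lower under Dex in S211A+MDFIC cells (log2 -0.86, SE 0.08, limma adjusted p = 0.000215) and 1.71-fold lower in S211A cells (log2 -0.77, SE 0.08, limma adjusted p = 0.000458). Of the 991 accessions that fell in S211A+MDFIC cells, 36 others fell farther than TNFAIP3, and in S211A cells 38 others of 517 did.

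The dimmer TNFAIP3 probe gave a different picture in S211A+MDFIC cells. It read 114.5, 42.8 and 51.3 intensity units on the Dex arrays, against 80.2, 70.0 and 74.5 under vehicle. The first Dex array was above all 3 vehicle arrays and the other two were below them, and the log2 change was -0.21 (SE 0.26, limma adjusted p = 0.648). In S211A cells it read 43.6, 50.3 and 45.4 units on the Dex arrays, against 73.5, 98.1 and 81.2 under vehicle. Those groups did not overlap, at a log2 change of -0.83 (SE 0.26, limma adjusted p = 0.105). The value with MDFIC depended on single arrays and turned sign: it was -0.57 without S211A+MDFIC Dex replicate 1 (limma adjusted p = 0.0464) and 0.10 without S211A+MDFIC Dex replicate 2 (limma adjusted p = 0.764). Both of those fits kept every S211A array, and the change in S211A cells stayed at -0.83. Its SE, which draws on all groups, was 0.12 and 0.18 there, and the change passed (limma adjusted p = 0.00535 and 0.0261). With any single S211A vehicle or S211A Dex array left out it did not pass (limma adjusted p = 0.166 to 0.256). Averaging both probes gave a log2 change for TNFAIP3 of -0.54 in S211A+MDFIC cells and -0.80 in S211A cells, both past the threshold.

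TNIP1 and BIRC3 did not pass under Dex in either setting. TNIP1 encodes a ubiquitin-binding partner of A20. Its brighter probe stood at 2.45, 2.23 and 2.47 on the S211A+MDFIC Dex arrays, against 2.09, 2.12 and 2.22 under vehicle, and at 2.28, 2.44 and 2.35 on the S211A Dex arrays, against 2.19, 2.05 and 2.18 under vehicle. The Dex arrays were above the vehicle arrays in both settings, with log2 changes of 0.24 (SE 0.08, limma adjusted p = 0.081) with MDFIC and 0.22 (SE 0.08, limma adjusted p = 0.155) without it. The dimmer probe gave 0.31 and 0.30 (limma adjusted p = 0.169 and 0.247). In S211A+MDFIC cells the brighter probe passed without Dex replicate 2 (log2 0.32) and the dimmer one without Dex replicate 1 (log2 0.45), and over the other left-out arrays the values went down to 0.20 at each probe. BIRC3 encodes a ubiquitin ligase that works at the tumour necrosis factor receptor. It stood at -3.13, -2.62 and -3.23 on the S211A+MDFIC Dex arrays, against -2.92, -2.85 and -3.03 under vehicle, and at -2.54, -2.69 and -2.65 on the S211A Dex arrays, against -2.83, -2.81 and -3.02 under vehicle. The S211A+MDFIC groups overlapped, with 1 Dex array above all the vehicle arrays and the others below them, whereas the S211A Dex arrays were above their vehicle arrays. The log2 changes were -0.06 (limma adjusted p = 0.834) with MDFIC and 0.26 (limma adjusted p = 0.354) without it, and with single arrays left out the first ran from -0.24 to 0.06.

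**Figure D2:**
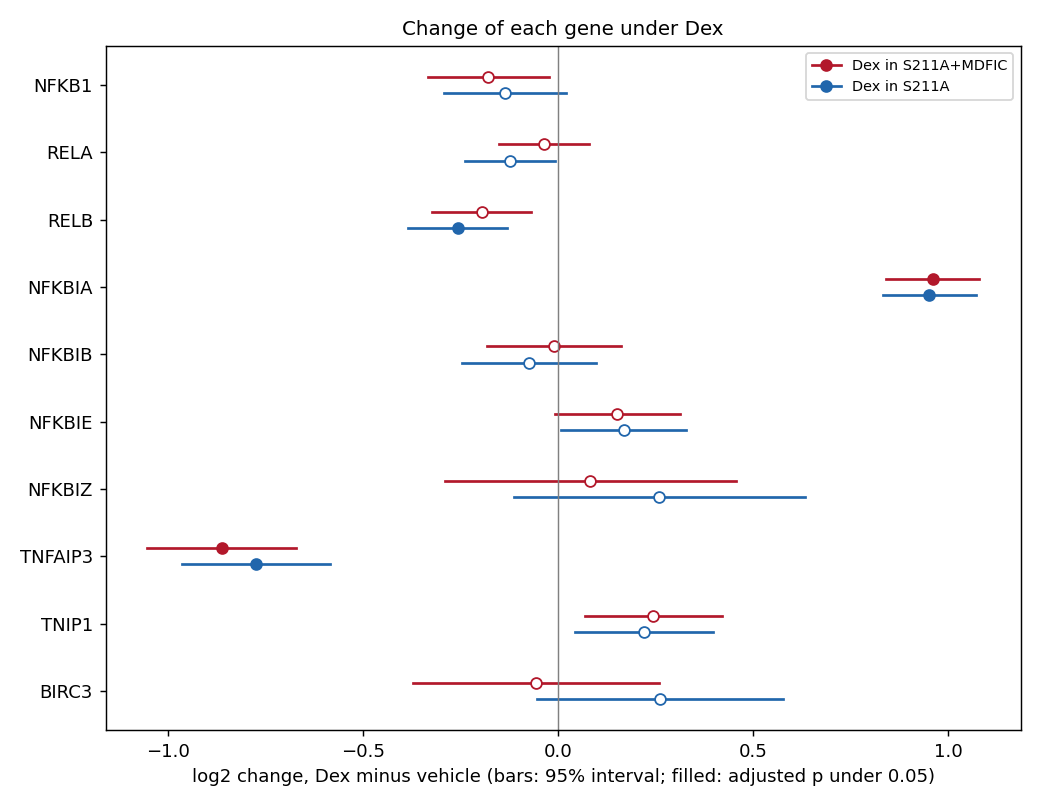
Log2 change of each member under Dex (brighter probe where there are 2), with its 95% interval, in S211A+MDFIC and in S211A cells, with filled points at an adjusted p under 0.05. NFKBIA lies at 0.96 and 0.95, the brighter TNFAIP3 probe at -0.86 and -0.77, and the subunits between -0.26 and -0.04.

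All 3 subunits had negative log2 changes under Dex in both settings, and 1 of the 3 passed the test, in S211A cells only. The signs were the same in 27 of 27 alternatives, but these reuse the same arrays and are not independent of each other. The share of all accessions with negative changes is not given here, so the shared sign is not read as a pattern of the subunits. RELB, the partner subunit of the slower non-canonical branch, stood at 2.18, 2.03 and 2.11 on the S211A+MDFIC Dex arrays, against 2.32, 2.29 and 2.31 under vehicle. It stood at 2.14, 2.21 and 2.10 on the S211A Dex arrays, against 2.49, 2.37 and 2.37 under vehicle. The Dex arrays were below the vehicle arrays in both settings. RELB was 1.20-fold lower in S211A cells (log2 -0.26, SE 0.06, limma adjusted p = 0.0260), and its change of -0.20 in S211A+MDFIC cells did not pass (SE 0.06, limma adjusted p = 0.0583). The 2 changes differed by 0.06, with a 95% interval of -0.12 to 0.24, so passing in one setting alone does not show that they differ.

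The RELB call depended on single arrays and on the processing. It ended without S211A vehicle replicate 1 (limma adjusted p = 0.0970), 2 (0.0530) or 3 (0.0552) and without S211A Dex replicate 1 (0.0590) or 3 (0.109). It also ended with normexp background correction (0.0680), without scaling between arrays (0.364), with only the compared groups in the fit (0.105), with slide as a block (0.222) and within slide 1 (0.383). It held in 17 of 27 alternatives, over which its log2 change stayed between -0.32 and -0.22. In S211A+MDFIC cells RELB passed in 4 of 27.

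NFKB1 encodes a precursor that is cut to a DNA-binding subunit, and RELA the main activating subunit of the canonical dimer. NFKB1 stood at -0.90, -1.17 and -1.05 on the S211A+MDFIC Dex arrays, against -0.84, -0.87 and -0.87 under vehicle, and at -1.12, -1.08 and -1.04 on the S211A Dex arrays, against -1.02, -0.93 and -0.89 under vehicle. The Dex arrays were below the vehicle arrays in both settings, with log2 changes of -0.18 (SE 0.07, limma adjusted p = 0.139) and -0.14 (SE 0.07, limma adjusted p = 0.328). The change with MDFIC was -0.25 and passed without S211A+MDFIC Dex replicate 1, and was -0.11 and did not pass without S211A+MDFIC Dex replicate 2 (limma adjusted p = 0.228). RELA stood at -0.26, -0.28 and -0.19 on the S211A+MDFIC Dex arrays, against -0.24, -0.23 and -0.15 under vehicle, and at -0.29, -0.22 and -0.29 on the S211A Dex arrays, against -0.07, -0.19 and -0.16 under vehicle. Its groups overlapped with MDFIC and were apart without it, at log2 changes of -0.04 (limma adjusted p = 0.691) and -0.12 (SE 0.05, limma adjusted p = 0.227).

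NFKB1 and RELA were each printed in 10 spots on every array, so the spread of spots within an array can be set beside the spread between replicates. For NFKB1, the SD over the spots of one array had a median of 0.07 on the log2 scale. The pooled SD between replicates was 0.08, with 0.02 to 0.14 in single groups. For RELA the median spot SD and the pooled SD were both 0.05. The replicates thus spread about as far as the spots of a single array, although each array value is a mean over as many as 10 spots. Outlier spots, which were left out, made up 2 of the 120 spot values of NFKB1 and 14 of the 120 of RELA. Most of those of RELA came from the same printed spot, which was flagged on every array.

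**Figure D3:**
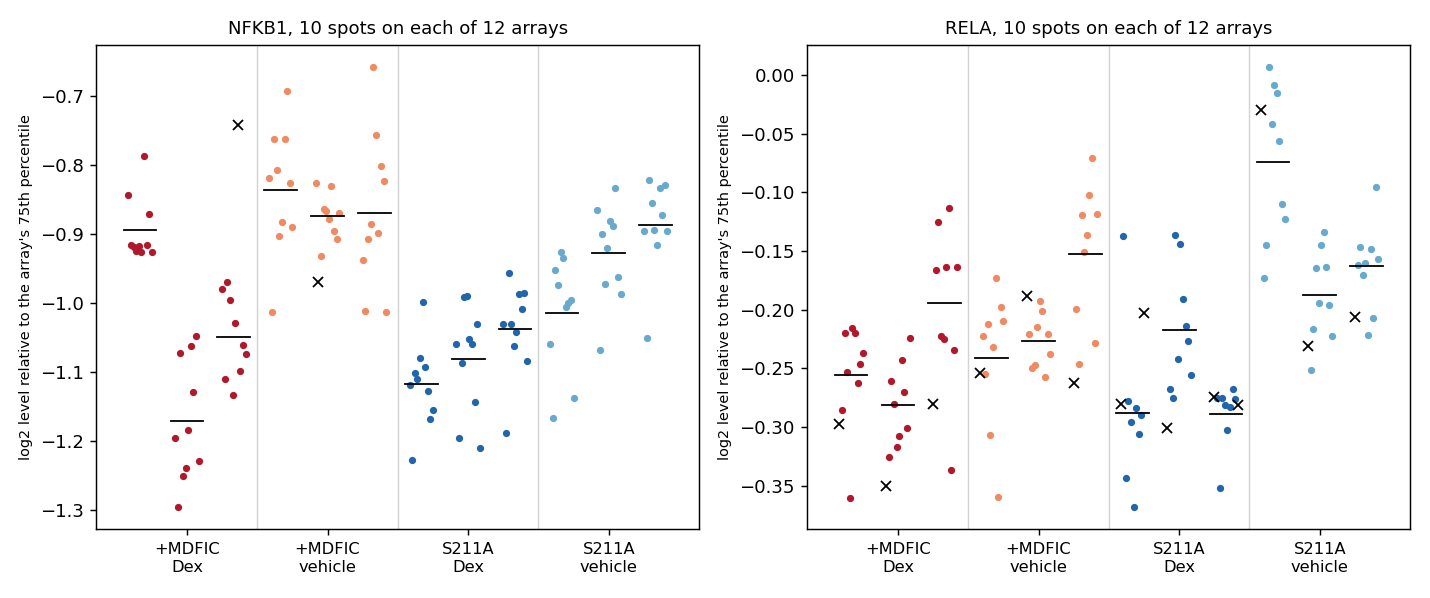
Log2 levels of the 10 spots of NFKB1 and of RELA on each array, with a line at the array mean and crosses for outlier spots, which the mean leaves out. The median spot SD within an array is 0.07 for NFKB1 and 0.05 for RELA, close to the pooled SD between replicates of 0.08 and 0.05.

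The changes under Dex were also fitted with slide as a block, and an effect of slide itself was not tested. With slide as a fixed block NFKBIA stood at 1.03 in S211A+MDFIC cells and 0.92 in S211A cells, and TNFAIP3 at -0.73 and -0.70, and all 4 values passed. Those sizes rest on slide 3 and on slide 1, the slides that hold both treatments of one setting, and a fit within either slide alone called 0 members in limma. There NFKBIA had an adjusted p of 0.139 within slide 3 and 0.111 within slide 1, with 1 array in one of the groups each time.

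Between S211A+MDFIC and S211A cells 0 of the 10 members passed the test in limma, under Dex or under vehicle. The fit without S211A+MDFIC Dex replicate 2 called 2 members under Dex, and 729 accessions (2.97%). In the reported fit 3 members had an unadjusted p under 0.05 under Dex (NFKBIB, TNFAIP3 and BIRC3) and 1 under vehicle (TNFAIP3). Over all accessions 13.6% had such a p under Dex and 16.3% under vehicle. At the adjusted threshold 0.435% of all accessions were called under Dex and 0.988% under vehicle. The median log2 change of the members was -0.03 in both comparisons, beside -0.00 under Dex and -0.01 under vehicle over all accessions. If arrays were not scaled, the median change over all accessions was 0.12 in both comparisons. The members' medians given here are of scaled values. The median size was 0.045 for the members and 0.11 for all accessions under Dex, and 0.066 and 0.11 under vehicle.

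TNFAIP3 was the member with the lowest unadjusted p in the vehicle comparison. Its brighter probe averaged -1.01 ± 0.13 in S211A+MDFIC Dex cells and -0.72 ± 0.07 in S211A Dex cells, and -0.15 ± 0.12 in S211A+MDFIC vehicle cells and 0.06 ± 0.08 in S211A vehicle cells (SD, n = 3 each). The S211A+MDFIC arrays were below the S211A arrays in both comparisons. The log2 change was -0.30 under Dex (SE 0.08, limma adjusted p = 0.196) and -0.21 under vehicle (SE 0.08, limma adjusted p = 0.266). The dimmer probe gave 0.32 under Dex and -0.29 under vehicle (limma adjusted p = 0.595 and 0.634), so the probes had opposite signs under Dex, and their mean gave 0.01. No slide holds both groups of either MDFIC comparison. With slide as a block in the test of every probe, the brighter probe stood at -0.05 under Dex (95% interval -0.39 to 0.28). It stood at -0.03 under vehicle (-0.36 to 0.31). These intervals include the values without the block, -0.30 and -0.21, so the blocked fit does not show that the difference is absent.

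BIRC3 averaged -2.99 ± 0.33 in S211A+MDFIC Dex cells and -2.62 ± 0.07 in S211A Dex cells (SD, n = 3 each), a log2 change of -0.37 (SE 0.14, limma adjusted p = 0.309). It was -0.18 with slide as a block, with a 95% interval in the test of every probe of -0.84 to 0.47, which includes -0.37. NFKBIB averaged -0.96 ± 0.08 and -1.16 ± 0.15 in the same groups (SD, n = 3 each), a log2 change of 0.20 (limma adjusted p = 0.303) that was also 0.20 with the block and 0.12 without S211A Dex replicate 1. The groups overlapped for both genes. S211A+MDFIC Dex replicate 2 was the highest or lowest of the 3 arrays of its group at 11 of the 12 member probes, beside 5 to 10 for the other arrays in theirs. It was the highest for BIRC3, NFKBIA, NFKBIE and the brighter TNFAIP3 probe, and the lowest for the others except the dimmer TNIP1 probe. Without it, TNFAIP3 (log2 -0.37, limma adjusted p = 0.0492) and BIRC3 (log2 -0.55, limma adjusted p = 0.0280) passed as lower with MDFIC under Dex. In the test of every probe with the same array left out, the brighter TNFAIP3 probe did not pass (limma adjusted p = 0.0535) and the dimmer one stood at 0.63 (limma adjusted p = 0.107).

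**Figure D4:**
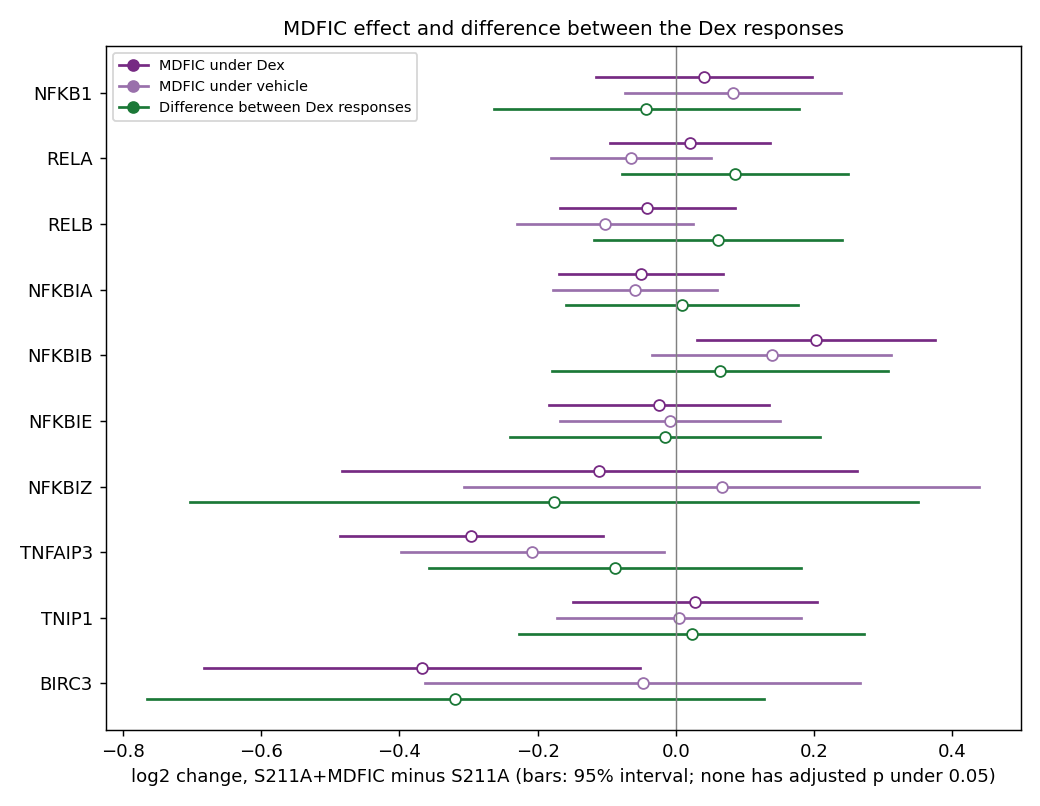
Log2 change of each member, S211A+MDFIC minus S211A cells (brighter probe where there are 2), under Dex and under vehicle, and the difference between the Dex responses, with 95% intervals. The brighter TNFAIP3 probe lies at -0.30 under Dex and -0.21 under vehicle, NFKBIB at 0.20 and 0.14, and BIRC3 at -0.37 under Dex.

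The response to Dex with MDFIC was then set against that without it. In limma 0 of the 10 members passed the test of this difference and 0 had an unadjusted p under 0.05. Over all accessions 0.273% passed and 9.84% had an unadjusted p under 0.05. The 67 accessions behind the first share became 0 without S211A+MDFIC Dex replicate 1, S211A+MDFIC vehicle replicate 1, S211A Dex replicate 3 or S211A vehicle replicate 1. The difference was 0.01 for NFKBIA, with a 95% interval of -0.16 to 0.18, which is narrow beside its change of about 1 unit. For TNFAIP3 it was -0.09 (-0.36 to 0.18) at the brighter probe and 0.62 (-0.20 to 1.43) at the dimmer one. The dimmer probe's value was 0.25 without S211A+MDFIC Dex replicate 1 and 0.92 without replicate 2 of that group, and the mean of both probes gave 0.26. For BIRC3 the difference was -0.32 (-0.76 to 0.13), with -0.51 to -0.20 over the left-out arrays, and for NFKBIZ -0.18 (-0.70 to 0.35). The intervals of NFKBIE (-0.24 to 0.21), TNIP1 (-0.23 to 0.27), NFKB1 (-0.26 to 0.18), RELA (-0.08 to 0.25) and NFKBIB (-0.18 to 0.31) leave room for differences as large as their own changes under Dex. The median half-width of these intervals over the members was 0.23.

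Levels across the 4 groups are given for the members called under Dex, RELB in S211A cells only. They were called on these same arrays, so their order by treatment is no further result. NFKBIA averaged 2.69 ± 0.03 in S211A+MDFIC Dex and 2.74 ± 0.03 in S211A Dex cells, and 1.74 ± 0.06 in S211A+MDFIC vehicle and 1.79 ± 0.07 in S211A vehicle cells (SD, n = 3 each). The groups that share a treatment did not pass the test of their difference (limma adjusted p = 0.686 under Dex and 0.641 under vehicle). TNFAIP3 at its brighter probe ran, from low to high, through S211A+MDFIC Dex, S211A Dex, S211A+MDFIC vehicle and S211A vehicle. RELB had the same order, at 2.11 ± 0.08, 2.15 ± 0.05, 2.31 ± 0.02 and 2.41 ± 0.07 (SD, n = 3 each), and its groups of one treatment did not pass the test either. Among 24509 accessions compared over the 12 arrays, the patterns most like that of NFKBIA were those of NM_001039966 (Pearson r 0.998) and THC2733814 (r 0.996). Their log2 changes under Dex were 2.14 and 1.09 in S211A+MDFIC cells and 2.07 and 0.95 in S211A cells. These correlations describe arrays that share 4 groups, and the files used here give neither accession a gene name.

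**Figure D5:**
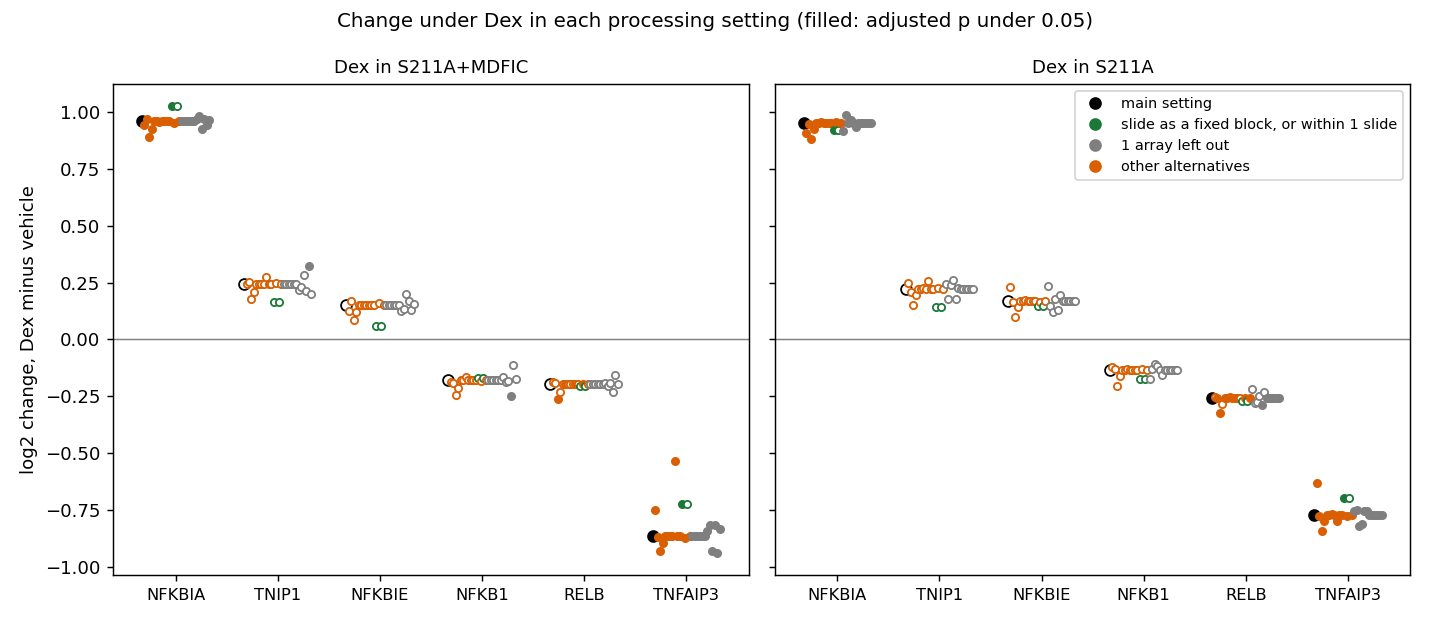
Log2 change under Dex of 6 members in the reported fit (black) and in each alternative, coloured by kind, for S211A+MDFIC and S211A cells, with filled points at an adjusted p under 0.05. NFKBIA and TNFAIP3 keep their signs in all 27 alternatives of each comparison, and RELB in S211A cells stays between -0.32 and -0.22.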

How the data were processed

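RNA levels were measured on 12 Cy3 arrays, 1 per COS-1 sample. The deposited values are linear intensity readings of 45015 spots per array. Per the file headers they come from Agilent Feature Extraction 12.0.0.7, background-subtracted and detrended. The series-wide table held the same intensity values.

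The processed signal was taken to log2, and each array's 75th percentile was subtracted. Outlier spots (945) were set to missing, 1639 control spots per array were left out, and spots of 1 probe were averaged. A probe was kept if some group had it well above background on each of its arrays (31236 of 41000 probes) and every group had 2 or more values (31230). The brightest probe stood for each of the 24586 accessions, and both probes of TNFAIP3 and TNIP1 were also fitted in a test of every probe. The 5 comparisons were contrasts of 4 group means over 12 arrays in limma 3.58.1 (R 4.3.3), two-sided, adjusted over all accessions. The code was tested on simulated data. Figures used matplotlib 3.10.9. The alternatives were other background corrections, scalings, filters, probe summaries, variance models, slide and replicate blocks and each array left out. Normexp, with an offset of 50, used the median spot signal.

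The members, lists and tests were chosen with earlier results of these data known. Named genes are the 10 members and the 2 accessions most like NFKBIA. Gene names come from the rule that chose the members. Pathway and marker lists by symbol, the transfected genes and probe sequences were not analysed here, since no table here pairs accessions with symbols. The labels call the replicates biological and do not say how cultures were separated, so p-values measure the spread between these samples.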

Additional observations from a re-analysis of the deposited data

How the results depend on the processing

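NFKBIA and TNFAIP3 kept their direction and their call in 26 of 27 alternatives of each Dex comparison, the exception being the fit within 1 slide. Within slide 3 limma called 0 members for Dex in S211A+MDFIC cells, and within slide 1 it called 0 for Dex in S211A cells. In each of these fits 1 group has 1 array, which is assumed to vary like the others. They called 0 and 30 accessions (2008 and 3218 at an unadjusted p under 0.05), against 2441 and 1587 in the reported fit. Trend and robust variance moderation gave 4 members for Dex in S211A+MDFIC cells (NFKBIA, TNFAIP3, TNIP1 and RELB). It called 3156 accessions (12.8%) there, against 2441 (9.93%) in the reported fit. With an array left out, 0 to 2 members passed for MDFIC under Dex, the 2 without S211A+MDFIC Dex replicate 2. Without that array 4652 accessions were called for Dex in S211A+MDFIC cells, 729 for MDFIC under Dex (107 otherwise), 428 for MDFIC under vehicle (243 otherwise) and 289 for the difference (67 otherwise). Without S211A vehicle replicate 2 there were 120 for MDFIC under Dex and 127 for the difference. Without S211A+MDFIC vehicle replicate 3 there were 94 for the difference. Several other left-out arrays lowered these counts. For MDFIC under Dex they gave 38 without S211A+MDFIC Dex replicate 1 and 33 without S211A Dex replicate 1. For MDFIC under vehicle they gave 68 and 70 without S211A+MDFIC vehicle replicates 1 and 2 and 76 without S211A vehicle replicate 1. For the difference 8 left-out arrays gave 0 to 3, with 1670 to 2425 accessions at an unadjusted p under 0.05. For Dex in S211A+MDFIC the count was 1158 and 1246 without vehicle replicates 1 and 2 of that setting, and 1524 and 1305 without its Dex replicates 1 and 3. For Dex in S211A it was 1025 and 1036 without S211A vehicle replicates 1 and 2, and 1026 and 905 without S211A Dex replicates 2 and 3. Over all settings limma's counts ran from 0 to 4652 for Dex in S211A+MDFIC, 30 to 1919 for Dex in S211A, 9 to 729 for MDFIC under Dex, 68 to 1429 for MDFIC under vehicle and 0 to 289 for the difference, where values without scaling and no filter on dim probes also gave 0 (943 and 3145 at an unadjusted p under 0.05). Slide as a fixed block gave 580, 671, 12, 73 and 40 in the same order. Without scaling there were 29 higher and 3 lower for MDFIC under Dex, against 63 and 44, and 58 and 14 for MDFIC under vehicle, against 112 and 131. Median centring gave 72 and 28 for MDFIC under Dex. Deviations of same-numbered arrays correlated with -0.259 to 0.247, and those of different-numbered arrays with -0.210 to 0.311. These ranges do not settle whether the replicate numbers pair the samples. With the replicate block 2 members were called for Dex in S211A+MDFIC, 3 for Dex in S211A and 0 in the other comparisons, and 2041, 1253, 78, 114 and 58 accessions in the order above. The cause of these shifts was not tested.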
